A study of Mus musculus with 19 samples.

Results

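Of the 9 genes of cartilage formation and mineralisation described here, 7 had a value in the infrarenal aorta of C57BL/6J mice, which are an inbred strain, 7 days after the vessel was filled with elastase or with saline. The genes were Sox9, Runx2, Comp, Chad, Mgp, Alpl, Enpp1, Ibsp and Chil1. A gene was taken from the probe sets that name a single gene in the platform's annotation, and its brightest probe set was used. No probe set carried the symbol of Runx2 or Enpp1 under that rule, and both are not analysed here. The 7 genes were read among 30743 genes in all. The probe set of Chil1 carries this symbol and the older Chi3l1, which are names of the same gene, and was kept as naming 1 gene.

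Each of the 19 arrays held RNA of the infrarenal aorta of 1 mouse operated on at 10 weeks of age. The segment was closed off for a time and infused for 5 min at 120 mmHg, in the sham groups with saline and in the PPE groups with type I porcine pancreatic elastase (PPE) at 2.5 U/mL in saline, a protease that degrades elastin and is used to induce an abdominal aortic aneurysm. The males comprised 5 sham and 7 PPE mice and the females 3 sham and 4 PPE mice, and the precision of all values is limited by that number of arrays. All groups had the same surgery, so none of them is an unoperated aorta. The whole vessel segment was used, so that for every gene below fewer cells of a type and less RNA per cell cannot be told apart. The labels do not say whether male and female aortae were processed together, and sex and any such batch cannot be told apart. Levels are therefore compared only within males and within females.

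Bone and cartilage cells lay down a matrix that takes up calcium phosphate, and vessel wall cells can express parts of the same programme when arteries calcify. Sox9 and Runx2 encode the transcription factors that direct cartilage and bone formation. Comp, Chad and Ibsp encode matrix proteins of cartilage and bone. Mineral is held in check by matrix Gla protein (Mgp), a small secreted protein that needs vitamin K for its activity and is made by arterial smooth muscle cells and chondrocytes, and by pyrophosphate, which Enpp1 makes and the alkaline phosphatase encoded by Alpl breaks down. Mice that lack Mgp calcify their arteries. Chil1 encodes a chitinase-like glycoprotein secreted by chondrocytes, macrophages and neutrophils.

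Values are log2 intensities. A gene was called when its adjusted p was below 0.05 in limma's moderated test with Benjamini-Hochberg adjustment over all 30743 genes. In males 1 of the 7 measured genes was called, Mgp, which fell, against 19.4% of all genes called in either direction, 9.6% higher and 9.82% lower. In females 0 of 7 were called by limma, against 4.16% of all genes, 2.74% higher and 1.42% lower. At an unadjusted p under 0.05 there were 2 of the 7 in males, against 29.2% of all genes, and 1 (Mgp) in females, against 14.6%. These shares also stand beside the counts of related genes and markers below. The median difference between PPE and sham over the 7 genes was 0.02 in males and -0.12 in females, beside 0.01 and -0.02 over all genes tested. With each array centred on its median, the share of higher genes among all called ones moved from 49.4% to 60.6% in males, and quantile normalization moved it from 65.8% to 44.3% in females. Median values over all probe sets were 5.61 to 5.85 in the male and 6.17 to 6.31 in the female arrays. Male sham 4, male sham 5 and male PPE 1 had the lowest brightest values of all arrays, 19.68 to 19.71 against 19.83 to 19.93 in the others. The mean of the adipocyte markers was 12.52 in male sham 4, where the remaining male sham aortae had 7.72 to 8.58. Calls that were lost without these 3 arrays together are named beside the gene.

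**Figure D1:**
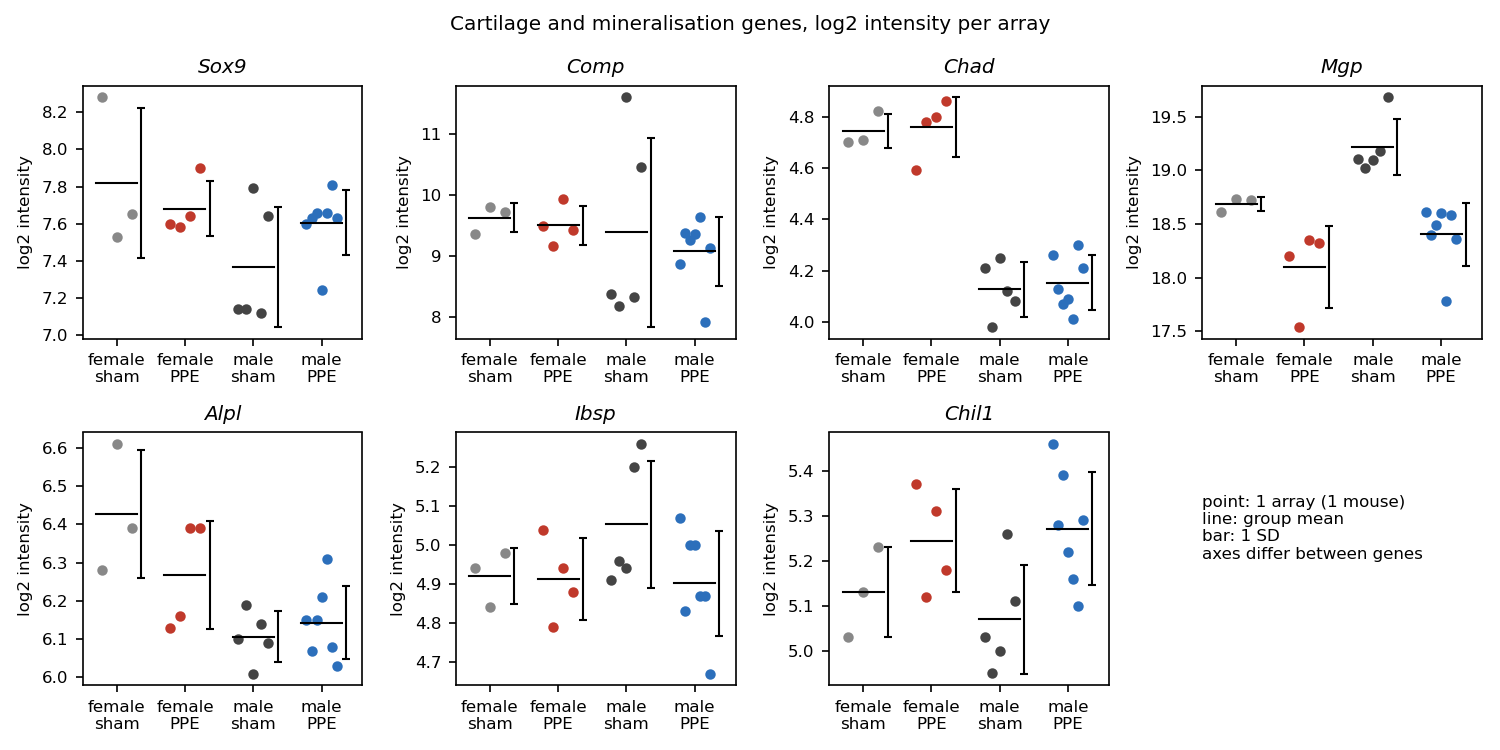
Log2 intensity (vertical axis, own scale in each panel) of the 7 measured genes, for females (3 sham, 4 PPE) and then males (5 sham, 7 PPE). A point is 1 mouse, a horizontal line the group mean and a bar 1 SD. The PPE points of Mgp lie below all sham points in both sexes, 2 male sham arrays lie apart in Comp, and the groups of the other genes overlap.

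The calcification inhibitor gene Mgp (chromosome 6, 136872435 to 136875823, RefSeq coordinates on GRCm38.p6, as for the genes below) had the largest difference of the 7 genes in both sexes. In males it read 19.11, 19.02, 19.10, 19.18 and 19.68 in the sham aortae and between 17.78 and 18.61 (median 18.49) in the 7 PPE aortae. Every PPE value lay below every sham value, which held for 4.61% of all genes in males. The mean was 19.22 ± 0.26 (SD, n = 5) in sham and 18.40 ± 0.29 (n = 7) in PPE. Mgp fell by 0.82 ± 0.16 (SE) on the log2 scale, 1.76-fold, with a limma adjusted p = 0.00107 and a 95% confidence interval from -1.15 to -0.48. Male sham 5 was the highest of the sham arrays and male PPE 5 the lowest of the PPE arrays. The difference was -0.70 without male sham 5 and -0.71 without male PPE 5, and it was called in each of the 19 fits that left out 1 array. Without the 3 male arrays named above it was -0.71 (adjusted p = 0.0114).

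In females Mgp read 18.61, 18.73 and 18.72 in the sham aortae and 18.20, 17.54, 18.35 and 18.32 in the PPE aortae. The groups did not overlap, as was the case with PPE below sham for 8.8% of all genes in females. The difference of -0.58 ± 0.21 (SE, 95% confidence interval -1.02 to -0.15) did not pass (limma adjusted p = 0.144). Without female PPE 2, the lowest array, it was -0.40 (adjusted p = 0.379). It passed after quantile normalization (-0.84, adjusted p = 0.041) and with array weights (-0.58, adjusted p = 0.0309). The response in males minus that in females was -0.23 ± 0.26 (adjusted p = 0.821), with an interval from -0.78 to 0.32 that bounds the difference in signal, so no difference between the sexes was shown. After quantile normalization its sign turned, to 0.12.

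Mgp was among the brightest probe sets of every array, at or above the 99.3rd percentile, and on male sham 5 its 19.68 was the highest value of the array. Values this close to the top of the scale may understate a difference, which was not tested. Smooth muscle markers fell between the same groups. All 6 of these markers (Acta2, Myh11, Tagln, Cnn1, Smtn and Lmod1) fell in males and 5 of 6 in females, with a median difference of -2.12 and -1.26. Their mean level was 13.62 to 14.74 in male sham and 11.75 to 12.94 in male PPE, and 14.00 to 14.43 in female sham and 12.72 to 13.41 in female PPE. Array by array the markers did not always follow Mgp. Male sham 5 was the highest of its group in both (14.74 and 19.68). Male PPE 1 had the lowest marker mean of its group (11.75) but the highest Mgp (18.61). The part of smooth muscle cells in the change of Mgp was not tested.

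**Figure D2:**
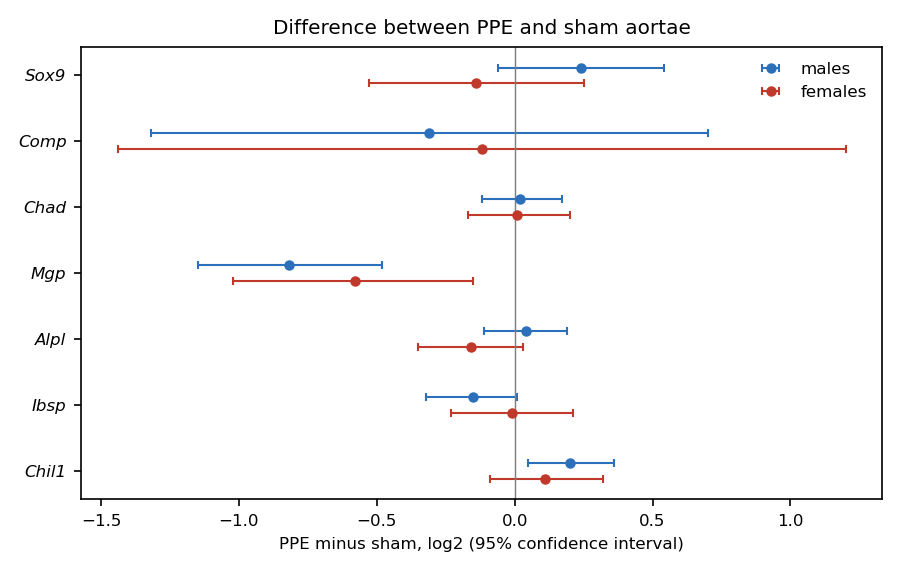
Difference between PPE and sham (horizontal axis, log2; points with 95% confidence intervals) for the 7 measured genes in males (blue) and females (red). The interval of Mgp lies below 0 in both sexes, that of Chil1 above 0 in males, and that of Comp is wider than those of the other genes. The intervals are not adjusted for the number of genes tested.

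Sox9 (chromosome 11, 112782210 to 112787757), which switches on cartilage matrix genes, did not pass in either sex. In males it read 7.14, 7.14, 7.79, 7.12 and 7.64 in sham and 7.24 to 7.81 (median 7.63) in PPE. Male sham 3 and 5 thus lay within the PPE range, and the other 3 sham aortae lay below it. The difference was 0.24 ± 0.14 (SE, limma adjusted p = 0.301, interval -0.06 to 0.54). In females the 3 sham values were 8.28, 7.53 and 7.65 and the PPE values 7.60, 7.58, 7.64 and 7.90, with a difference of -0.14 ± 0.19 (adjusted p = 0.843). That sign rests on female sham 1, without which the difference was 0.09.

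Comp (chromosome 8, 70373548 to 70382066) encodes cartilage oligomeric matrix protein, a thrombospondin of cartilage and tendon that arterial smooth muscle also makes. The 5 male sham aortae fell into a low and a high set, with 8.38, 8.19 and 8.33 in male sham 1, 2 and 4 and 11.59 and 10.45 in male sham 3 and 5. The male PPE values, 7.92 to 9.64 (median 9.26), lay between these sets apart from male PPE 6 at 7.92. The SD was 1.54 in male sham against 0.56 in male PPE, 0.23 in female sham and 0.32 in female PPE. The male difference of -0.31 ± 0.48 (SE) did not pass (limma adjusted p = 0.752), and its interval, -1.32 to 0.70, leaves a change of over 2-fold downwards possible. Without male sham 3 it was 0.24, without male sham 5 -0.04, and with array weights 0.03, so these data give no direction for Comp in males. In females Comp read 9.36, 9.80 and 9.72 in sham and 9.49, 9.17, 9.93 and 9.42 in PPE, a difference of -0.12 ± 0.63 (adjusted p = 0.968) with the error that males and females share in the fit.

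The 3 genes whose pattern was most like that of Comp over the 19 arrays, each sex centred on its own mean, were Nfasc (Pearson r = 0.82, Spearman rho = 0.62), Kazn (r = 0.81, rho = 0.66) and Ecrg4 (r = 0.81, rho = 0.62). They were the closest of 17717 genes searched, so these values are descriptions with no test, and the points of a group share their treatment. With the 2 arrays farthest from the median of Comp left out, r was 0.64, 0.48 and 0.75. Male sham 3 was the highest male array for all 3 of these genes, as it was for Comp, at 7.85 for Nfasc and 9.50 for Ecrg4. In females alone r was 0.11 for Nfasc, 0.88 for Kazn and 0.34 for Ecrg4. Male sham 3 and 5 were the highest male sham arrays for both Sox9 and Comp, and over all 19 arrays the r of these genes was 0.35.

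**Figure D3:**
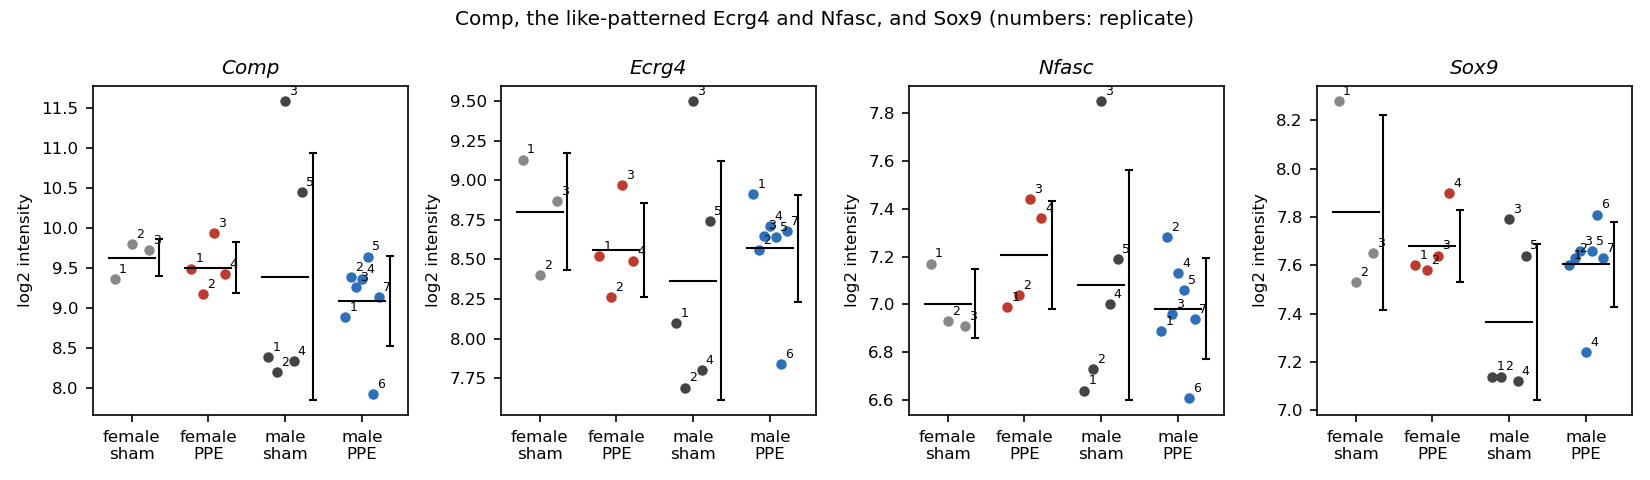
Log2 intensity (vertical axis, own scale in each panel) of Comp, of Ecrg4 and Nfasc, which had patterns like it, and of Sox9, in the 4 groups; small numbers give the replicate, lines the group mean and bars 1 SD. Male sham 3 is the highest male sham array in all 4 panels, at 11.59 for Comp, and male sham 5 is the next in each.

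Alpl (chromosome 4, 137741731 to 137796384) did not pass in either sex. It read 6.10, 6.19, 6.01, 6.14 and 6.09 in male sham and 6.03 to 6.31 (median 6.15) in male PPE, a difference of 0.04 ± 0.07 (SE, limma adjusted p = 0.804). In females it read 6.28, 6.61 and 6.39 in sham and 6.13, 6.16, 6.39 and 6.39 in PPE, a difference of -0.16 ± 0.09 (adjusted p = 0.49). The groups overlapped in both sexes. Both intervals, -0.11 to 0.19 in males and -0.35 to 0.03 in females, lie nearer to 0 than -0.48, the end of the male Mgp interval nearest to 0. Alpl lay at the 47.6th to 59.7th percentile of all probe sets, far below Mgp. These intervals therefore bound the change of its signal, and that of the transcript may be larger. The genes most like Alpl in pattern were Fcer1a, a chain of the high-affinity IgE receptor (r = 0.88, rho = 0.80 over 19 arrays), Cma1, the mast cell chymase (r = 0.85, rho = 0.76), and the lectin gene Cd209g (r = 0.83, rho = 0.66). Without the 2 farthest arrays r was 0.75, 0.74 and 0.66. Female sham 2 was the highest female array for all 4 genes, and male PPE 5 the highest male array. In these arrays Fcer1a read 5.58 and 4.82.

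Chad, Ibsp and Chil1 were dim, below the median of all probe sets on every array. Chad (chromosome 11, 94565047 to 94569127), which encodes chondroadherin, a cartilage protein that binds collagen and cells, was below the 30th percentile on all 19 arrays. It read 3.98 to 4.25 in male sham and 4.01 to 4.30 in male PPE (0.02 ± 0.07, SE, limma adjusted p = 0.867), and 4.70 to 4.82 in female sham and 4.59 to 4.86 in female PPE (0.01 ± 0.09, adjusted p = 0.975). A transcript at this level may lie below what the array can measure, so these intervals bound the change of the probe set's signal and not that of the transcript.

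Ibsp (chromosome 5, 104299287 to 104311472), which encodes bone sialoprotein, a matrix protein of bone on which mineral forms, exceeded the 30th percentile on 11 arrays. In males it read 4.91, 4.96, 4.94, 5.20 and 5.26 in sham and 4.67 to 5.07 (median 4.87) in PPE, a difference of -0.15 ± 0.08 (SE, limma adjusted p = 0.22), and -0.06 (adjusted p = 0.629) without male sham 4, male sham 5 and male PPE 1. The upper values of sham came from male sham 4 and 5, which were among the 3 arrays that stood apart in their brightest values. In females it read 4.94, 4.84 and 4.98 in sham and 5.04, 4.79, 4.94 and 4.88 in PPE (-0.01 ± 0.10, adjusted p = 0.988).

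Chil1 (chromosome 1, 134182156 to 134190031) came next to a call in males. It read 5.03, 4.95, 5.00, 5.26 and 5.11 in sham and 5.10 to 5.46 (median 5.28) in PPE. Male sham 4 and 5 overlapped the PPE range and the other 3 sham aortae lay below it. The difference was 0.20 ± 0.07 (SE, interval 0.05 to 0.36, 1.15-fold) with a limma adjusted p = 0.0661. It passed after median centring (0.25, adjusted p = 0.00639), after quantile normalization (0.23, adjusted p = 0.00934), with array weights (0.22, adjusted p = 0.0197) and without male sham 4 (0.25, adjusted p = 0.0248) or male PPE 6 (0.23, adjusted p = 0.0398). Without the 3 male arrays that stood apart it was 0.25 (adjusted p = 0.0299). In females it read 5.03, 5.13 and 5.23 in sham and 5.37, 5.12, 5.31 and 5.18 in PPE (0.11 ± 0.10, adjusted p = 0.705). Chil1 exceeded the 30th percentile on 13 arrays.

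Of 5 measured chitinase-family genes, Chil3 and Chil4 rose in both sexes and the other 3 were not called in either, with a list median of 0.12 in males and -0.01 in females. Chil3, which encodes the chitinase-like protein Ym1 of activated macrophages and neutrophils, read 7.16, 7.70, 7.90, 6.57 and 6.28 in male sham and 7.95 to 10.94 in male PPE, and rose by 1.92 ± 0.46 (SE, 3.78-fold, limma adjusted p = 0.00531). In females it read 5.96, 6.52 and 6.55 in sham and 8.43 to 9.76 in PPE, and rose by 2.77 ± 0.60 (6.83-fold, adjusted p = 0.0123). Chil4, a close copy of Chil3, rose by 0.81 ± 0.21 in males (adjusted p = 0.00971) and by 1.29 ± 0.27 in females (adjusted p = 0.0117). In both sexes every PPE value of both genes lay above every sham value, against 4.67% of all genes in males and 10.9% in females. In males the groups nearly touched. The highest sham and lowest PPE values were 7.90 and 7.95 for Chil3, and 6.03 and 6.07 for Chil4. Probes may not separate Chil3 from Chil4. In females the call of Chil3 was lost without female sham 1 (adjusted p = 0.0677) or 2 (adjusted p = 0.0546), and that of Chil4 without female sham 2 (adjusted p = 0.06). The female call of Chil3 was also lost with replicate number as a block in the limma fit (adjusted p = 0.0645). Neutrophil markers rose between the same groups in both sexes, and macrophage markers did so in males. Of 8 neutrophil markers 6 rose in males and 4 in females, with mean levels of 6.22 to 7.26 in male sham and 7.47 to 8.73 in male PPE. In females the mean levels were 6.34 to 6.66 in sham and 7.83 to 8.85 in PPE. Of 6 monocyte and macrophage markers 5 rose in males and 0 were called by limma in females (2 at an unadjusted p under 0.05), with mean levels of 12.31 to 14.21 in male sham and 14.36 to 15.21 in male PPE. The mean levels of the macrophage markers were 13.94 to 14.11 in female sham and 14.24 to 15.29 in female PPE. The highest male PPE array was replicate 4 for Chil3 (10.94), 3 for the neutrophil mean (8.73) and 6 for the macrophage mean (15.21). In female PPE replicate 3 was highest for Chil3 (9.76) and for the neutrophil mean (8.85), and replicate 2 for the macrophage mean (15.29). The part of neutrophils and macrophages in the values of Chil1, Chil3 and Chil4 was not tested.

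**Figure D4:**
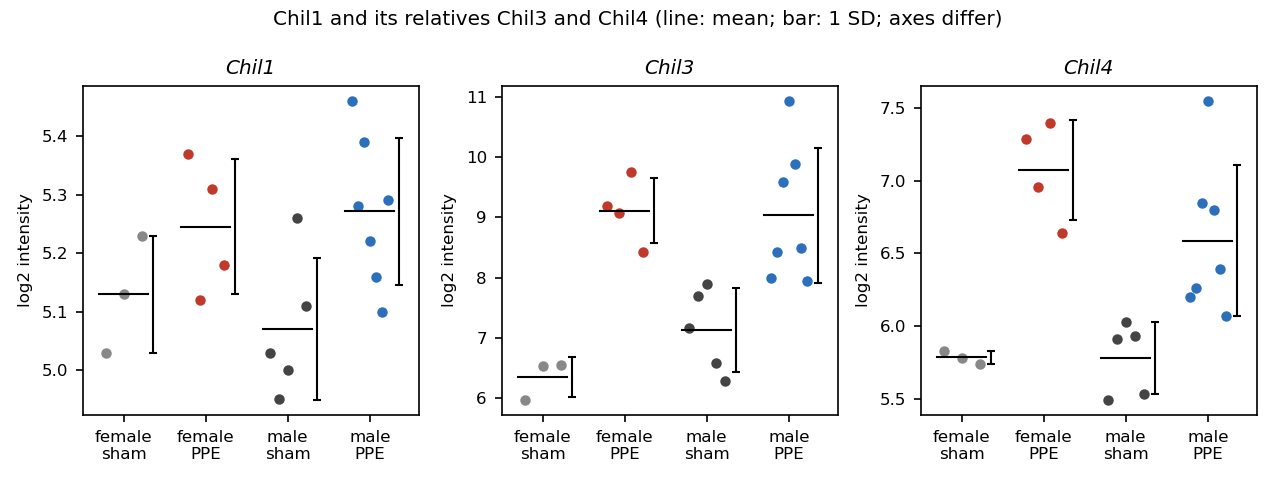
Log2 intensity (vertical axis, own scale in each panel) of Chil1 and its relatives Chil3 and Chil4 in the 4 groups; a point is 1 mouse, a line the group mean and a bar 1 SD. PPE and sham values do not overlap for Chil3 and Chil4, and they overlap for Chil1 in both sexes.

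The sequences upstream of these 3 genes are shown because the gene with no call and the pair that rose are relatives. They are the 250 bases before the start of each gene, taken from RefSeq on GRCm38.p6. Chil1 lies on the plus strand (chr1:134181906-134182155), and Chil3 (chr3:106167565-106167814) and Chil4 (chr3:106219480-106219729) lie on the minus strand. Capitals mark matches, on either strand, to TTGCNNAA (C/EBP factors), GAGGAA (the PU.1 core), TGANTCA (AP-1), TGTGGT (Runx core) or, for the element that places the start of transcription, TATAAA. No 2 of the printed matches overlap.
Chil1: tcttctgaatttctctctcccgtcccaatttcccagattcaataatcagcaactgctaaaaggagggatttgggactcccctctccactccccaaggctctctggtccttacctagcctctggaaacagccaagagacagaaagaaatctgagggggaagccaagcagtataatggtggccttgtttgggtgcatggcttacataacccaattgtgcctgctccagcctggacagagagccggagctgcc
Chil3: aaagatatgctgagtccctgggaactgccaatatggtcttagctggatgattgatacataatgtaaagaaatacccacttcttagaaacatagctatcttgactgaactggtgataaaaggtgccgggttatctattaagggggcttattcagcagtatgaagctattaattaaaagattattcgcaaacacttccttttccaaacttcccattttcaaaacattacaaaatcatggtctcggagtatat
Chil4: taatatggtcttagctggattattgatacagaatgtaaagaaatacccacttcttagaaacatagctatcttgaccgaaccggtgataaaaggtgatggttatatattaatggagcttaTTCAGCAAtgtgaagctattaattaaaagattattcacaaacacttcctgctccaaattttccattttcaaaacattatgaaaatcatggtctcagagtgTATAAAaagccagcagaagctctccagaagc
In Chil4 the window held a TATA box that starts 31 bases before the gene start and a C/EBP match that starts 131 bases before it. The windows of Chil1 and Chil3 held no match to the 5 motifs. The window of Chil3 ends, at its annotated start, within the stretch that corresponds to the TATA box of Chil4. The bases beyond that point were not searched, so a lack of a TATA box in Chil3 is not shown. A global alignment paired 201 identical bases between the windows of Chil3 and Chil4, 80.4% of their length. Of all 32851 windows of this kind, 12.4% held the TATA box, 9.56% the C/EBP motif, 23.3% the PU.1 core, 6.75% the AP-1 motif and 14.0% the Runx core. Of the 9 genes 6 had a window in the table. Chad held a TATA box on the plus strand, Ibsp held one on the minus strand, and so did the window of the second of the start sites of Alpl. Runx2 and Enpp1 each held a Runx core and a C/EBP match. A match is a string of letters and not a shown binding site.

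The response to PPE did not differ detectably between the sexes for the other genes either. By limma 0 of the 7 genes were called for the male minus female difference, against 0.527% of all genes. At an unadjusted p under 0.05 there were 0 of the 7, against 9.89% of all genes. The differences were 0.38 ± 0.24 (SE) for Sox9, 0.20 ± 0.12 for Alpl, 0.09 ± 0.12 for Chil1, 0.01 ± 0.11 for Chad, -0.15 ± 0.13 for Ibsp and -0.18 ± 0.79 for Comp. The interval of Comp, -1.84 to 1.48, leaves large differences possible in either direction, and that of Alpl was -0.05 to 0.44. For the dim Chad the interval of -0.22 to 0.24 concerns the signal of the probe set.

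The nearest genes in pattern to Mgp were Nupr1, a stress-response gene (r = 0.93, rho = 0.90 over 19 arrays), Shroom3 (r = 0.92, rho = 0.90) and Tmbim1 (r = 0.91, rho = 0.86), with r of 0.92, 0.88 and 0.87 without the 2 farthest arrays. Nupr1 read 11.36 to 12.52 in male sham and 10.56 to 11.10 in male PPE, so that it separated the male groups as Mgp did. The r values include the difference between sham and PPE. For Sox9 the nearest were Slc35b2 (r = 0.80, rho = 0.72), Cdk2ap1 (r = 0.75, rho = 0.70) and Mad2l1bp (r = 0.73, rho = 0.76), with r of 0.73, 0.64 and 0.66 without the 2 farthest arrays. The dim genes Chad, Ibsp and Chil1 had nearest genes at r of 0.72, 0.86 and 0.88. For these pairs r was 0.61, 0.76 and 0.88 without the 2 farthest arrays, and 0.82, 0.41 and 0.96 in females alone. Among the 7 genes themselves the highest r was 0.61, between Mgp and Ibsp, and the lowest -0.32, between Mgp and Chil1. Ibsp is dim, and male sham 5 was the highest array for both Mgp (19.68) and Ibsp (5.26). For pairs of the 7 genes rho, and r without the farthest arrays, were not computed.

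Of 18 other measured genes of cartilage matrix 2 fell in males and 1 in females (median 0.05 and -0.10). Among all genes 9.82% were called lower in males and 1.42% in females. Cytl1, which encodes a secreted protein of cartilage and of CD34+ cells, fell by 2.69 ± 0.34 (SE) in males (6.46-fold, limma adjusted p = 1.74e-05) and stood at -2.63 ± 0.44 in females (called lower, 6.18-fold, adjusted p = 0.00361). Its values were 12.03 to 13.03 in male sham and 8.87 to 10.60 in male PPE. Hapln1, the link protein that binds aggrecan to hyaluronan, fell by 0.63 in males (adjusted p = 0.00175). Acan, which encodes aggrecan itself, stood at 0.55 ± 0.34 in males (adjusted p = 0.323) and 1.06 ± 0.45 in females (adjusted p = 0.254) and was not called. It was 0.36 in males without male sham 4 and 0.63 in females without female sham 2, and array weights called it in females (1.36, adjusted p = 0.0264). Of 9 measured regulators of chondrogenesis 3 fell in males, and limma called 0 in females, with 0 at an unadjusted p under 0.05 (median -0.10 and -0.13). These were Sox5 (-0.44, adjusted p = 0.000382) and Sox6 (-0.78, adjusted p = 0.001), the partners of Sox9 in cartilage, and the ubiquitin ligase gene Wwp2 (-0.65, adjusted p = 0.00168). Sox9 itself, at 0.24 in males, was not called. Of 6 chondrocyte markers 1 (Hapln1) fell in males, and their mean levels were 6.26 to 6.49 in male sham and 6.16 to 6.60 in male PPE.

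Among regulators of osteoblasts 1 of 11 rose and 2 fell in males, where 9.6% of all genes were called higher and 9.82% lower. In females limma called 0 (1 at an unadjusted p under 0.05). The medians were 0.00 in males and -0.03 in females. Cbfb, the partner subunit of Runx proteins, rose by 0.60 ± 0.13 (SE, limma adjusted p = 0.00246) in males. Bmp2, a bone-inducing growth factor gene, was at -0.35 (adjusted p = 0.00833) and Zfp521 at -0.37 (adjusted p = 0.0254), and both lost the call after median centring (adjusted p = 0.0598 and 0.125). Both also lost it with replicate number as a block in the limma fit (adjusted p = 0.147 and 0.0569), and Bmp2 after quantile normalization (adjusted p = 0.0661). Zfp521 also lost it without male sham 1, 3 or 5 or male PPE 6, and without the 3 male arrays that stood apart (-0.36, adjusted p = 0.0524). Sp7, the osteoblast factor gene osterix, stood at 0.00 ± 0.07 in males. It read 3.85 to 4.28 in male sham, below the 30th percentile of these arrays (4.74 to 4.97). As for Chad, the error concerns the signal of the probe set and not the transcript. In bone matrix genes 1 of 9 fell in males, Phex (-0.68, limma adjusted p = 0.00717), a peptidase gene whose loss causes phosphate wasting. That call was lost with replicate number as a block in the fit (adjusted p = 0.0538). In females limma called 0 of the 9 (1 at an unadjusted p under 0.05). Bglap, which encodes osteocalcin, was at 0.01 in males and -0.09 in females, and was not called. The medians were -0.01 and -0.07. Of the 5 osteoblast markers 1 (Phex) fell in males and 0 were called by limma in females (1 at an unadjusted p under 0.05).

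Of 10 measured genes of phosphate and pyrophosphate handling 2 rose and 2 fell in males, where 9.6% of all genes were called higher and 9.82% lower. In females limma called 0 (3 at an unadjusted p under 0.05). The medians were -0.05 in males and -0.02 in females. The phosphate importer genes parted, with Slc20a2 at -0.58 (limma adjusted p = 0.00166) and Slc20a1 at 0.34 (adjusted p = 0.0435, lost without male sham 1, 2 or 4, male PPE 2, 3, 4, 5 or 7, female sham 3 or female PPE 3, and at 0.40 with an adjusted p of 0.0561 without the 3 male arrays that stood apart). The exporter gene Xpr1 fell by 0.57 (adjusted p = 0.00358). Fgf23, which encodes a hormone that makes the kidney excrete phosphate, rose by 1.16 ± 0.15 (SE, adjusted p = 2.36e-05) from 4.05 to 5.01 in male sham to 5.08 to 5.92 in male PPE, a probe set that was dim in sham. In females it was at 0.26 ± 0.20 (adjusted p = 0.656). Of 5 relatives of Enpp1, 3 fell in males and 1 in females (median -0.70 and -0.62). Enpp5 fell by 1.20 ± 0.19 in males (adjusted p = 0.000136), Enpp3 fell by 0.96 (adjusted p = 0.00545) and Enpp6 fell by 0.70 (adjusted p = 0.00224). With replicate number as a block in the limma fit the male calls of Enpp6 (adjusted p = 0.0705) and Slc20a2 (adjusted p = 0.0524) were lost. Enpp6 was called in females too, at -0.74 (adjusted p = 0.0394), a call lost without any 1 of the 3 female sham arrays, female PPE 1, 2 or 3 or male sham 2, and after median centring (adjusted p = 0.0919). Of the 3 alkaline phosphatase relatives of Alpl limma called 0 in either sex, with 0 at an unadjusted p under 0.05 in females, and Alpi was at 0.05 in males. Of 4 genes linked to the vitamin K dependent carboxylation of proteins like Mgp 1 fell in males, the carboxylase gene Ggcx (-0.50, limma adjusted p = 0.0326). In females limma called 0 of the 4 (2 at an unadjusted p under 0.05). The Ggcx call was lost after median centring (adjusted p = 0.0967) and without male sham 1, 2 or 3 or male PPE 4, 5 or 6, and in females Ggcx stood at -0.69 (adjusted p = 0.0716).

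**Figure D5:**
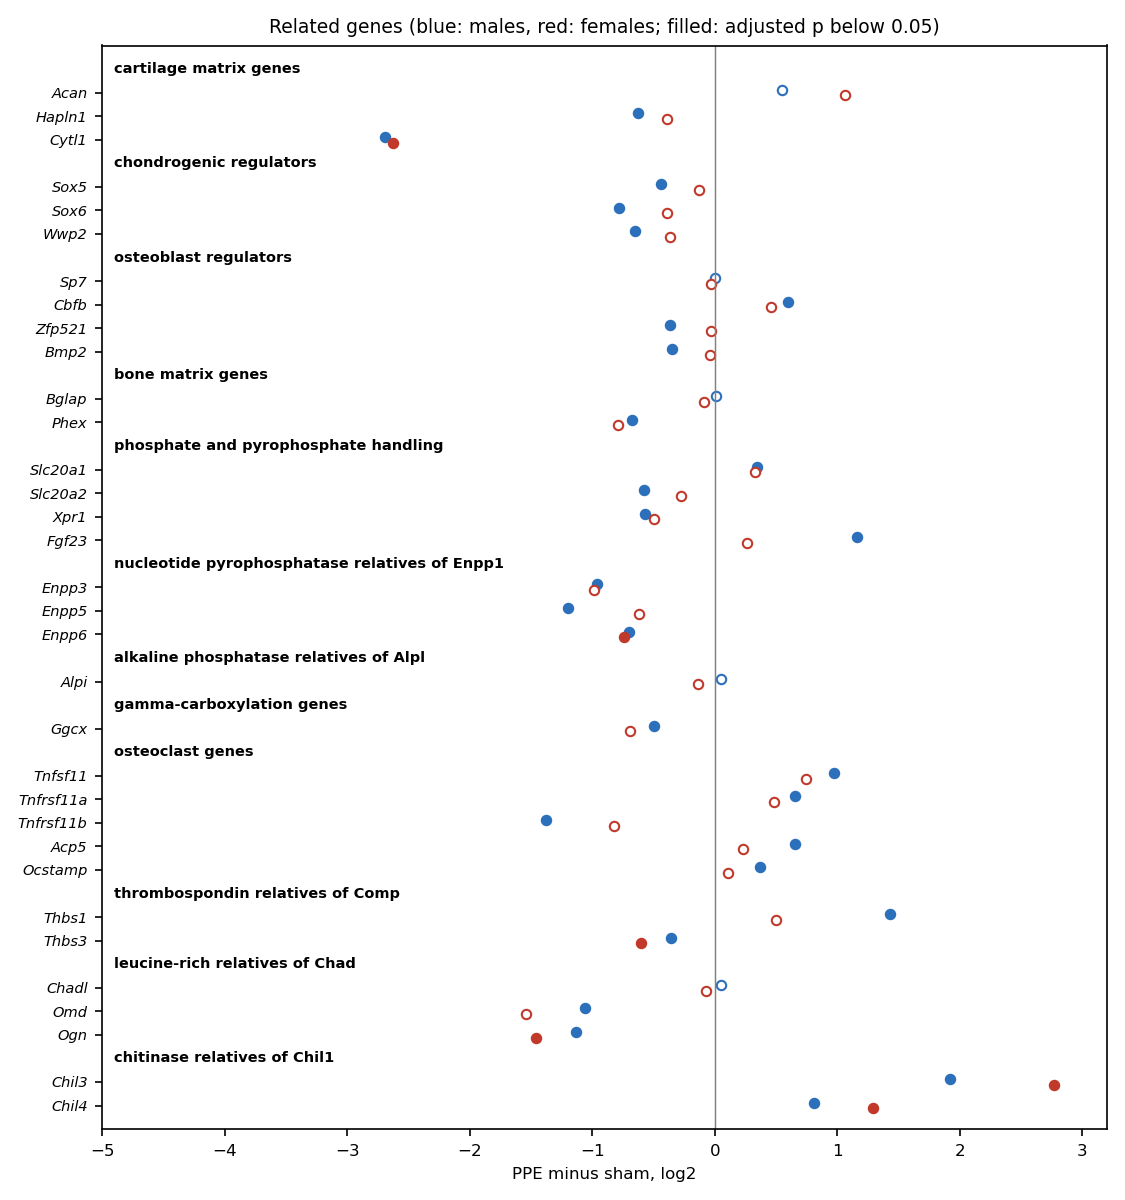
Difference between PPE and sham (horizontal axis, log2) for genes related to the 9, by list, in males (blue) and females (red); filled points have an adjusted p below 0.05. Cytl1 lies near -2.6 in both sexes, Chil3 and Chil4 lie above 0 in both, and most red points are open.

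Osteoclasts are macrophage-derived cells that remove bone. Of 11 genes that osteoclasts express or that other cells make to control them, 4 rose and 1 fell in males, while limma called 0 in females (3 at an unadjusted p under 0.05). The medians were 0.15 and -0.02. Tnfsf11, which encodes the osteoclast-inducing cytokine RANKL, rose by 0.97 ± 0.20 (SE, limma adjusted p = 0.0018) in males, and its receptor gene Tnfrsf11a by 0.65 (adjusted p = 0.00182). The decoy receptor gene Tnfrsf11b, whose product osteoprotegerin binds RANKL, fell by 1.38 ± 0.28 (2.60-fold, adjusted p = 0.00176), from 9.11 to 10.94 in male sham to 7.77 to 8.79 in male PPE. The acid phosphatase gene Acp5 rose by 0.65 (adjusted p = 0.00173) and Ocstamp by 0.37 (adjusted p = 0.0142, and 0.0531 with the male arrays fitted alone). Markers of macrophages (5 of 6) and T cells (4 of 4) rose in the same males, and their part in these values was not tested. In females Tnfsf11, Tnfrsf11a and Tnfrsf11b stood at 0.74, 0.48 and -0.82 with adjusted p of 0.143, 0.154 and 0.306.

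The thrombospondin relatives of Comp gave 1 rise and 1 fall among 4 genes in males and 1 fall in females (median 0.28 and -0.03). Thbs1, an adhesive glycoprotein of platelets and injured vessels, rose by 1.43 ± 0.30 (SE) in males (2.70-fold, limma adjusted p = 0.00222) and was at 0.50 in females (adjusted p = 0.683). Thbs3 was at -0.36 in males (adjusted p = 0.0456) and -0.60 in females (adjusted p = 0.0403), and lost both calls after median centring (adjusted p = 0.142 and 0.103). The male call was also lost without any 1 of male sham 2 to 5, of the 7 male PPE arrays or of female PPE 1, 3 and 4, and the female call without female sham 1 or 2, female PPE 1, 3 or 4, male sham 2 or male PPE 4 or 7. Without the 3 male arrays that stood apart Thbs3 was at -0.26 in males (adjusted p = 0.27). Of the 7 leucine-rich relatives of Chad 2 fell in males and 1 in females (median -0.27 and -0.91). Ogn, which encodes osteoglycin, fell by 1.13 ± 0.24 in males (adjusted p = 0.00191) and stood at -1.46 ± 0.31 in females (called lower, adjusted p = 0.0111, and 0.075 without female sham 2). Omd, osteomodulin, was at -1.06 in males (adjusted p = 0.0296), a call lost without male sham 1 or 2 or male PPE 2 or 6, and at -1.54 in females (adjusted p = 0.0511). The closest relative by name, Chadl, was at 0.05 in males and -0.07 in females, and was not called.

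The remaining markers were checked for other tissue in the dissected segment. Fibroblast markers fell in 3 of 4 in males and 2 of 4 in females, and endothelial markers in 2 of 4 in males. T cell markers rose in 4 of 4 in both sexes. In males limma called 0 of 3 tendon, 0 of 6 adipocyte, 0 of 5 skeletal muscle, 0 of 1 Schwann cell and 0 of 4 sex-linked markers, and in females 0 of these and 0 of 6 chondrocyte and 0 of 4 endothelial markers. At an unadjusted p under 0.05 the counts in males were 1 of 6 adipocyte and 1 of 4 sex-linked markers and 0 of the others, and in females 1 of 3 tendon, 2 of 6 chondrocyte and 2 of 4 endothelial markers and 0 of the others. The skeletal muscle marker mean was 11.78 in female sham 1 against a group median of 6.21, 10.39 in female PPE 2 against 6.03 to 6.11 in the other female PPE arrays, and 7.99 in male PPE 6 against 5.45 to 5.88 in the other male PPE arrays. Sox9 was the highest of its group in female sham 1 (8.28) and male PPE 6 (7.81) and the lowest in female PPE 2 (7.58). Mgp was the lowest of its group in female sham 1 (18.61) and female PPE 2 (17.54), but was 18.58 in male PPE 6. Comp was the lowest of its group in each of these arrays, at 9.36, 9.17 and 7.92. These genes were picked from the 7 on seeing their values. The part of such tissue in the values of the 7 genes was not tested.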

How the data were processed

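The deposited values are log2 intensities, which the authors made with Transcriptome Analysis Console on mm10, per the submitters' processing notes. Which version it was, and how background was corrected and probes were summarised, is not given in the sources used here. RNA (100 ng per mouse, TRIzol) was hybridised to Clariom D/MTA 1.0 arrays, 1 mouse per array, per the labels' protocols. Of 65956 probe sets, 30604 named 1 symbol, 612 named synonyms of 1 gene and were merged, as for Chil1, and 1534 named several genes and were left out. No gene is named for 33206. Of the genes kept, 827 symbols were updated through RefSeq.

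A group-means model over all 19 arrays was fitted with limma 3.58.1 in R 4.3.3, tested on simulated data. P-values measure the spread between mice. The 9 genes, the related lists and the markers were chosen with earlier results of these data known. From each list the called genes, at most the 4 with the lowest p in each direction, and its first member were named. The nearest genes were the 3 with the highest Pearson r. The alternatives tried were a filter on dim genes (30th percentile in 3 arrays), a 2-fold screen, median centring or quantile normalization of the arrays, other probe set rules, other variance models, array weights, 1 cohort alone, a replicate block and arrays left out. Probe sets with exactly 1 distinct symbol, and median centring without male sham 4, were chosen as alternatives after seeing the data.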

Additional observations from a re-analysis of the deposited data

Results flagged for a closer look

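Among 120 groups of 4 to 7 arrays, 1 array lay far from the rest in 7, measured as its gap to the nearest array over the range of the group. Chance alone gives such gaps in about 1 group in 20. Mgp was highest in male sham 5, at 19.68 against 19.02 to 19.18, and lowest in male PPE 5, at 17.78 against 18.36 to 18.61. Sox9 was lowest in male PPE 4, at 7.24 against 7.60 to 7.81. Male sham 5 was also highest for Sp7, at 4.28 against 3.85 to 3.97, and for Wwp2, at 11.45 against 10.54 to 10.80. Fgf23 was highest in female PPE 3, at 5.41 against 5.04 to 5.06, and Sox6 in female PPE 4, at 7.12 against 6.65 to 6.71.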

How the results depend on the processing

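Mgp was called lower in males under every alternative other than the 2-fold screen, which left 0 of the 7 genes by limma in males (2 at an unadjusted p under 0.05 before the screen). The count was 2 (Mgp and Chil1) after quantile normalization, median centring, array weights, removal of the 3 male arrays, and median centring without male sham 4, and 1 to 2 with 1 array left out. In females it was 1 (Mgp) after quantile normalization and with array weights, and 0 otherwise. Replicate numbers showed no pairing of the mice. Deviations of arrays with the same number correlated at -0.32 to 0.24, and only female 3 correlated best with its own number. A pairing that this measure misses is not excluded. The replicate block gave 1 called gene in males, 0 in females and 0 for the difference (limma; unadjusted counts not computed), and the male call of Mgp had an adjusted p of 0.0382. It left 3551, 642 and 0 of all genes called, against 5969, 1279 and 162.

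The following uncalled values changed sign. Ibsp in females was 0.03 after quantile normalization, 0.01 with array weights and 0.00 with the replicate block. Sp7 was 0.00 in females after quantile normalization, and in males 0.05 after median centring, 0.03 with array weights, 0.00 with 1 cohort alone and with the block, 0.07 without the 3 male arrays and 0.02 after centring without male sham 4. Array weights gave 0.03 for Comp in males and for Sox9 in females, 0.26 for the difference of Comp and -0.01 for that of Chad. The block gave -0.02 for Chad in both sexes and 0.01 for the difference of Comp. Without the 3 male arrays Chad and Chadl stood at -0.01 and Bglap at -0.03 in males, and the difference of Chad at -0.03. Quantile normalization gave -0.03 for the difference of Chad and 0.12 for that of Mgp. The cause of these changes was not tested.

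With 1 array left out the ranges that crossed 0 were -0.61 to 0.24 for Comp, -0.01 to 0.06 for Chad, -0.07 to 0.05 for Bglap and -0.04 to 0.07 for Sp7 in males. In females they were -0.29 to 0.09 for Sox9, -0.02 to 0.07 for Chad, -0.05 to 0.03 for Ibsp, -0.12 to 0.06 for Bmp2 and -0.10 to 0.06 for Zfp521, and for the difference -0.48 to 0.37 for Comp and -0.05 to 0.04 for Chad.

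Of the named related genes, 18 of 28 male calls and 1 of 6 female calls (Cytl1) held under every alternative other than the 2-fold screen, which was not applied to single genes, none reversed, and 11 uncalled female values were called under some. With the male arrays fitted alone, the male calls of Ggcx (adjusted p = 0.0854), Ocstamp (0.0531), Omd (0.055), Slc20a1 (0.0611) and Zfp521 (0.071) were lost, and with the female arrays alone the female call of Thbs3 (0.147). Beside the losses named above, the replicate block in limma lost the male calls of Ggcx (adjusted p = 0.0933), Ocstamp (0.131), Omd (0.0984) and Thbs3 (0.13). It also lost the female calls of Enpp6 (0.174) and Thbs3 (0.199). Over all genes the 2-fold screen left 1226 in males and 500 in females. In females array weights called 3978, the female cohort alone 1978, the fit without the 3 male arrays 2475, and the fits with 1 array left out 362 to 1618. For the difference median centring called 274, array weights 909, the fit without the 3 male arrays 56, and the fits with 1 array left out 0 to 419. The share of higher genes among those called for the difference was 7.41%, and 30.6% after quantile normalization. Signal over background limits Chad, Ibsp and Chil1, as well as related genes such as Sp7 and the alkaline phosphatase relatives of Alpl.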
